A study of Brassica rapa subsp. pekinensis with 4 samples.

Results

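A set of 63 genes of Chinese cabbage (Brassica rapa subsp. pekinensis) is described here. These genes have no Arabidopsis thaliana match in the deposited table and were nevertheless expressed in shoots. Of the 36698 genes listed, 1537 (4.19%) had an empty match column, and 63 of these (4.10%) reached a mean of at least 10 CPM (the count of a gene per 1000000 counts of its library) over the 4 libraries. Among the 35161 genes with a match, 15463 (44.0%) reached the same minimum. The members were thus chosen by their mean level over both groups, so their being expressed is the rule and not a result.

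Genes without a recognisable relative in another species are called orphan or lineage-specific genes. In plants they are often short, expressed at low levels or in few tissues, and some have been tied to responses to stress. A gene model without a match can also be a piece of a transposable element, a mistaken prediction, a quickly diverged duplicate or a copy of organelle DNA that was carried into the nucleus. The methods of the study describe a BlastP comparison with the Phytozome database for annotation, but do not say whether the match column came from it. The table names no function for any of the 63 genes, so they are given below by their Bra identifiers alone.

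The libraries were made from shoots of the inbred line “4004”, the only genotype analysed here. The 35D Ver group was vernalized, that is, kept at about 5 °C for 35 days under a shorter daily light period, and was labelled as 7-week-old plants. The 0D Ver group received no cold and was labelled as 2-week-old plants. Each group had 2 libraries of poly(A) RNA, and age and day length therefore differed together with the cold, so that their parts in any difference below cannot be told apart. Nothing in the labels says that the 2 libraries of a group came from separate plants, although the methods call them biological replicates, and p-values measure the spread between these libraries.

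The deposited counts summed to 23428420 and 22709649 in the 35D Ver libraries and to 21315738 and 17221386 in the 0D Ver libraries. Copies of known vernalization genes differed between the groups. Relative to 0D Ver, all 4 copies of FLC, the repressor of flowering that cold silences, had log2 fold changes between -4.20 and -3.84, and the 2 copies of VIN3, which takes part in that silencing, lay between 2.83 and 3.95 (limma, highest adjusted p of these and of the 3 SOC1 copies, 5.11e-06). Leaf markers, genes of the photosynthetic apparatus, summed to 55086 and 44276 CPM under 35D Ver and to 40177 and 39015 CPM under 0D Ver. Single leaf copies went both ways, with log2 fold changes from -0.71 (Bra022707, adjusted p = 0.00213) to 0.59 (Bra017055, adjusted p = 0.0155, limma). All 11 copies of root markers and all 7 copies of seed storage markers lay under 1 CPM, as did 12 of 15 copies of floral markers. The 15 floral copies summed to 18.5 to 23.5 CPM under 35D Ver and 22.0 to 29.9 CPM under 0D Ver. Log2 fold changes of those tested ran from -0.67 (Bra014822, adjusted p = 0.146) to 1.23 (Bra006549, adjusted p = 0.0121, limma). The only floral copies called were Bra002285, Bra006549 and Bra020093, which match the same Arabidopsis locus. All of them were higher in 35D Ver, at no more than 23.8 normalized counts in a library. In bulk shoots, fewer cells of a type and less RNA per cell cannot be told apart.

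More of the 63 genes were higher than lower after vernalization. With limma on log2(normalized count + 1), where a normalized count is the count divided by the size factor of its library, 27 genes (42.9%) were higher and 11 (17.5%) lower in 35D Ver at an adjusted p under 0.05, and 25 were not called. Over all 29691 genes tested, the background was 20.1% higher and 20.5% lower, and among the 15463 expressed genes with a match it was 23.5% higher and 19.8% lower. The 35D Ver pair lay wholly above the 0D Ver pair in 33 members (52.4%) and wholly below it in 17 (27.0%), while the groups overlapped in 13. These shares were 40.2% and 34.3% among expressed genes with a match, and 36.0% and 37.1% over all genes tested.

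The median log2 fold change of the members was 0.26, with quartiles of -0.27 and 0.57, against 0.03 with quartiles of -0.27 and 0.32 for expressed genes with a match and -0.01 over all genes tested. The members were also spread more widely, with a median absolute log2 fold change of 0.51 against 0.30 for expressed genes with a match. This median was 0.44 for the tested genes without a match under the minimum and 0.36 over all genes tested. No test of 1 list against the other was made, and these are descriptions of the lists. Which group carried a gene over the minimum bears on the counts of calls and on the spread. The mean CPM of each group reached 10 in 44 members, of which 17 (38.6%) were higher and 7 (15.9%) lower, against 22.7% and 17.5% of the 14166 such genes with a match. Another 12 members reached it in 35D Ver only, of which 10 (83.3%) were higher, against 75.7% of 552 such genes with a match. The other 7 reached it in 0D Ver only, of which 4 (57.1%) were lower, against 77.9% of 745 such genes with a match.

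The balance of increases and decreases depended on the chosen minimum. With a mean of at least 5 CPM, 127 genes without a match qualified, of which 41 were higher and 28 lower, and their median log2 fold change was 0.05, while 22.1% of the genes with a match at that minimum were higher and 20.5% lower. With at least 20 CPM, 32 genes qualified, of which 14 were higher and 6 lower, with a median of 0.27, while 25.6% of the genes with a match were higher and 19.2% lower. Of the 1474 genes without a match under the minimum, 480 had enough counts to be tested, and 63 of them (13.1%) were higher and 75 (15.6%) lower.

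**Figure D1:**
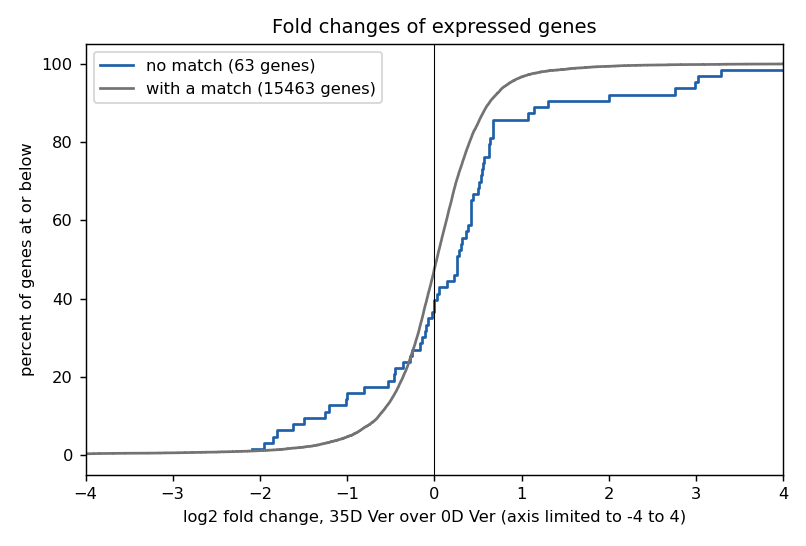
Cumulative percent of genes (y axis) at or below each log2 fold change of 35D Ver over 0D Ver (x axis, limited to -4 to 4), for the 63 expressed genes without a match and the 15463 expressed genes with a match. The curve of genes without a match lies to the right of the other at its middle (median 0.26 against 0.03) and is wider at both ends.

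At least 2-fold changes at an adjusted p under 0.05 were found in 9 members (14.3%) in the direction of 35D Ver and in 7 (11.1%) in the direction of 0D Ver. The corresponding shares were 3.28% and 4.55% of expressed genes with a match, 8.75% and 10.8% of the tested genes without a match under the minimum, and 5.97% and 7.76% of all genes tested. Most of these members passed the minimum only through the group where they were high, namely 8 of the 9 higher and 3 of the 7 lower. The shares thus partly follow from the rule, and no conclusion on how frequent large changes are among the members is drawn from them. Of the 44 members at 10 CPM or more in both groups, 1 (2.27%) was at least 2-fold higher and 4 (9.09%) at least 2-fold lower, against 2.30% and 2.92% of the genes with a match chosen the same way. The definition of a differentially expressed gene (DEG) in the study adds a minimum of 500 normalized counts, which was taken here as the mean of the group with the higher mean, a reading that the methods do not spell out. By it, 5 members (7.94%) were higher and 5 (7.94%) lower, against 2.55% and 3.34% of expressed genes with a match and 1.34% and 1.75% of all genes tested. Of the higher ones, Bra001086, Bra016440, Bra007440 and Bra015238 passed the minimum of 10 CPM only through 35D Ver. Of the lower ones, Bra021037 passed it only through 0D Ver. The DEG shares therefore carry the same limit, and no conclusion is drawn from them.

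The members spanned levels from the minimum of 10 CPM up to 2374 CPM, and 52 of them lay under 100 CPM. Of the 31 members between 10 and 20 CPM, 13 (41.9%) were higher and 5 (16.1%) lower, against 19.4% and 20.8% of the 5213 genes with a match at that level. Of the 14 members between 20 and 50 CPM, 5 (35.7%) were higher and 3 (21.4%) lower, against 22.9% and 19.6% of 5985 genes with a match. Of the 7 between 50 and 100 CPM, 4 (57.1%) were higher, 0 lower and 3 not called, against 26.7% higher and 17.6% lower among 2505 genes with a match. These 7 include Bra000597 and Bra005173, both higher, and Bra014641 and Bra026989, both not called. Each of these pairs had near-identical or identical counts, so the 7 members are fewer than 7 separate readings. Of the 11 members at 100 CPM or more, 5 (45.5%) were higher and 3 (27.3%) lower, against 33.2% and 20.2% of the 1760 genes with a match. From 20 CPM upwards the genes with a match thus also leaned to increases, and at 100 CPM or more the ratio of increases to decreases was about the same in both lists.

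Next to the minimum, Bra012759 stood just inside it at a mean of 10.04 CPM, with 11.1 and 10.7 CPM in 35D Ver and 7.69 and 10.7 CPM in 0D Ver. Bra008007 stood inside it at 10.1 CPM, with 5.51 and 4.98 CPM in 35D Ver and 15.2 and 14.7 CPM in 0D Ver. Just outside it, Bra034071 and Bra036224 both had a mean of 9.72 CPM. Bra034071 had 8.84 and 11.3 CPM in 35D Ver and 10.4 and 8.36 CPM in 0D Ver, and Bra036224 had 12.4 and 9.64 CPM in 35D Ver and 8.21 and 8.59 CPM in 0D Ver. Of these 4 genes, only Bra008007 had groups more than 2-fold apart.

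**Figure D2:**
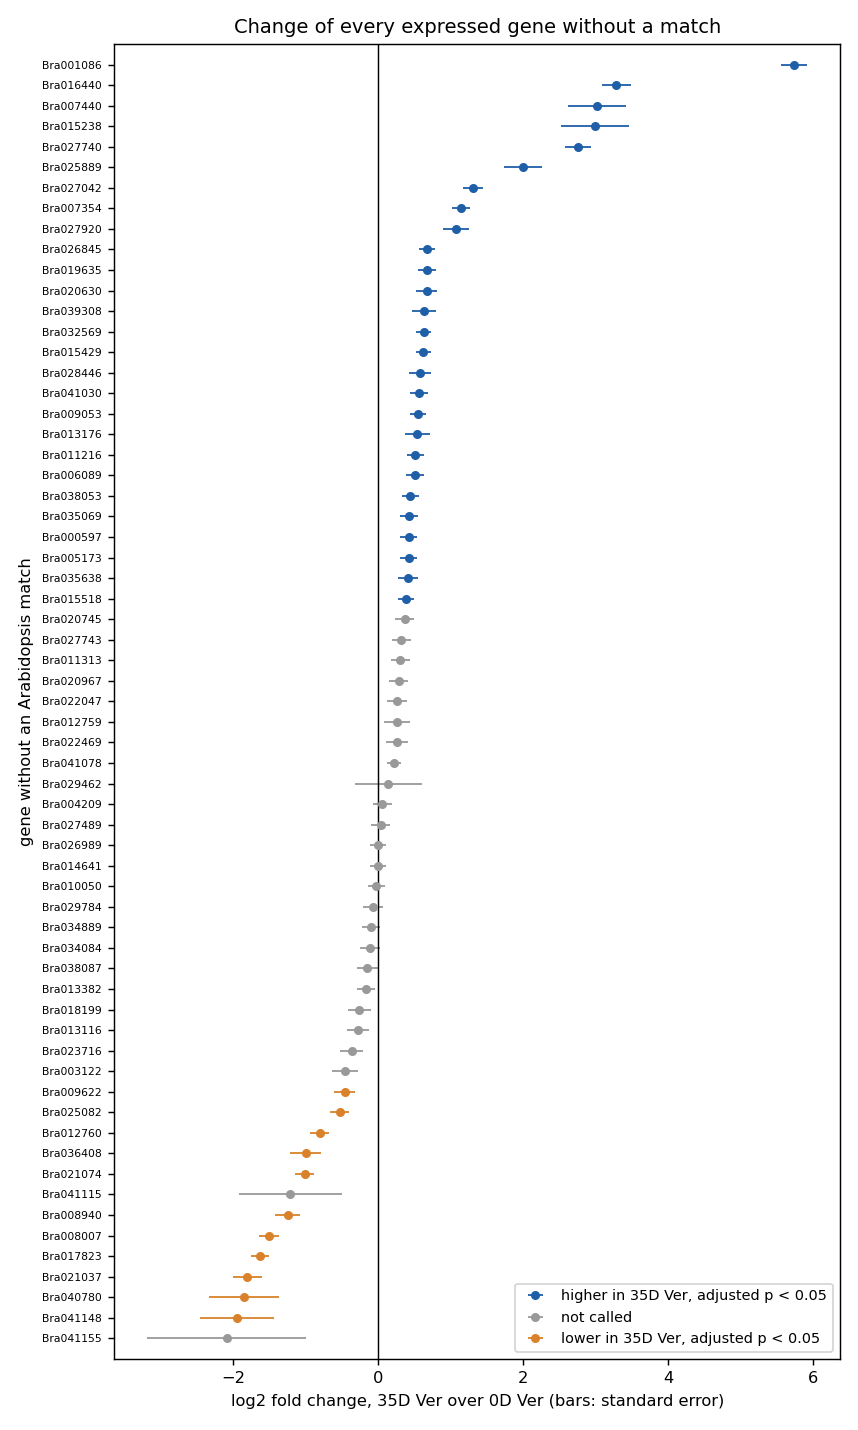
Log2 fold change of 35D Ver over 0D Ver (x axis) of each of the 63 members (y axis, sorted by fold change), with the standard error as a bar. Blue marks the 27 members higher in 35D Ver, orange the 11 lower and grey the 25 not called, and the longest bar belongs to Bra041155 at the bottom (standard error 1.10).

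The largest increase by far was that of Bra001086. It had 6695 and 9565 normalized counts under 35D Ver, against 133 and 166 under 0D Ver. Replicates were 1.43-fold apart in 35D Ver and 1.24-fold apart in 0D Ver, far less than the groups, which had means of 8130 ± 2029 and 150 ± 23.0 normalized counts (SD, n = 2 each). Its log2 fold change was 5.74 (SE 0.18, adjusted p = 1.14e-06, limma), a 54.3-fold ratio of the means, and it ranked 6th among the increases of all 29691 genes tested. Under the alternatives tried, its log2 fold change stayed between 5.49 and 6.02.

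The next 4 increases came from genes that were low in both 0D Ver libraries. Bra016440 had 621 and 499.6 normalized counts in 35D Ver, against 47.1 and 67.1 in 0D Ver, a log2 fold change of 3.29 (SE 0.20, adjusted p = 1.25e-05, limma). Bra027740 had 524 and 392 normalized counts in 35D Ver, against 71.6 and 61.0 in 0D Ver, a log2 fold change of 2.76 (SE 0.18, adjusted p = 1.68e-05, limma). In both genes the gap between the groups was many times the gap between replicates, and both calls held under the alternatives tried.

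Bra007440 and Bra015238 shared another pattern, in which the 35D Ver libraries were close together while 0D Ver replicate 1 lay more than 2-fold above 0D Ver replicate 2. Bra007440 had 1191 and 1241 normalized counts in 35D Ver, against 221 and 100.1 in 0D Ver, with a log2 fold change of 3.02 (SE 0.40, adjusted p = 0.00680, limma). Bra015238 had 507 and 614 normalized counts in 35D Ver, against 109 and 43.9 in 0D Ver, with a log2 fold change of 2.99 (SE 0.46, adjusted p = 0.00998, limma). In each gene the groups were more than 4-fold apart at their nearest. The calls were lost when either 35D Ver library was left out, since the fit then takes the spread from the 0D Ver pair: the adjusted p was 0.184 without replicate 1 and 0.186 without replicate 2 for Bra007440, and 0.172 and 0.193 for Bra015238 (limma). The log2 fold change of Bra015238 was 2.35 without 0D Ver replicate 2 and 3.62 without 0D Ver replicate 1.

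Bra025889 completed the 6 largest increases. It had 311 and 451 normalized counts in 35D Ver, against 118 and 73.2 in 0D Ver, a log2 fold change of 2.00 (SE 0.26, adjusted p = 0.000924, limma). The remaining 3 members that rose at least 2-fold were named after their values were seen. Bra027042 had 2527 and 1982 normalized counts in 35D Ver, against 871 and 937 in 0D Ver (log2 fold change 1.31, adjusted p = 0.000175, limma). Bra007354 and Bra027920 had log2 fold changes of 1.14 (SE 0.12) and 1.08 (SE 0.18), and that of Bra027920 lay between 0.86 and 1.33 when 1 library was left out.

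The other 18 members higher in 35D Ver changed by less than 2-fold. Their log2 fold changes lay between 0.39 and 0.67 with a median of 0.54, their standard errors between 0.10 and 0.17, and their adjusted p-values between 0.00200 and 0.0410 (limma). The largest of these, Bra026845, had 2534 and 2716 normalized counts in 35D Ver, against 1770.2 and 1528 in 0D Ver, and it too was named after its values were seen. So 18 of the 27 increases were under 2-fold, while the first 6 ranged from 3.99-fold to 54.3-fold. All of these 6 passed the minimum of 10 CPM only through 35D Ver, the group where they were high. Their large changes thus partly follow from the rule.

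**Figure D3:**
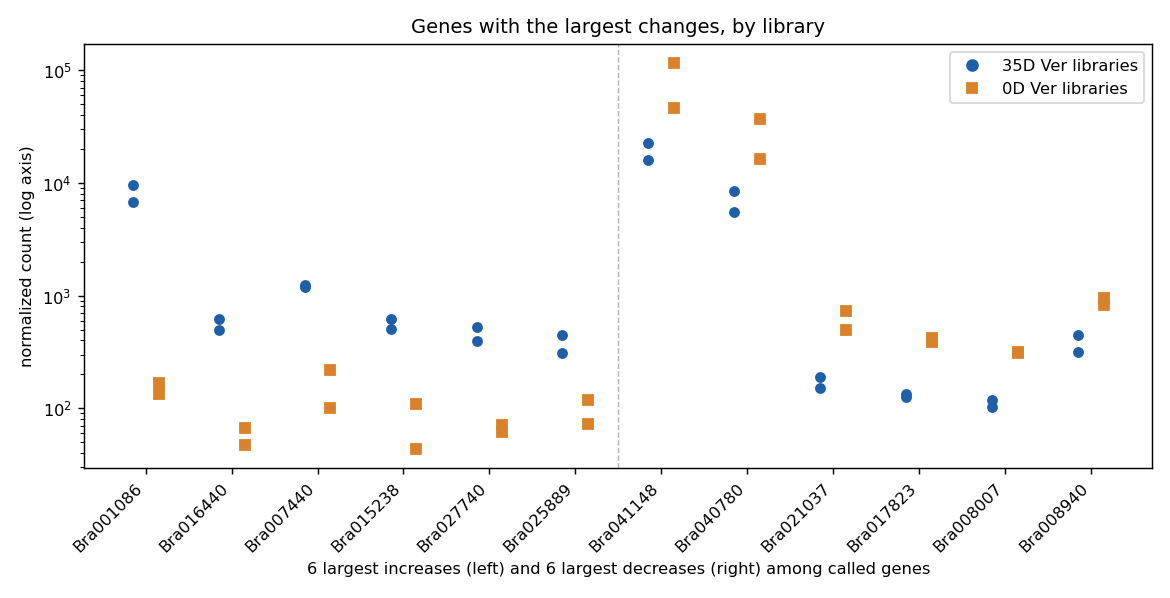
Normalized counts (y axis, log axis) in each library for the 6 largest increases and the 6 largest decreases among members at an adjusted p under 0.05 (x axis), with 35D Ver as blue circles and 0D Ver as orange squares. The groups lie apart in all 12 genes, most widely in Bra001086, and the 0D Ver libraries of Bra041148 and Bra040780 lie more than 2-fold from each other.

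Among the 6 largest decreases of called members, Bra017823 and Bra008007 had the replicates that lay closest together in both groups. Bra017823 had 135 and 127 normalized counts in 35D Ver, against 422 and 389 in 0D Ver, a log2 fold change of -1.63 (SE 0.13, adjusted p = 4.92e-05, limma). Bra008007 had 118 and 103 normalized counts in 35D Ver, against 319 and 309 in 0D Ver, a log2 fold change of -1.50 (SE 0.14, adjusted p = 0.000112, limma). In each of them, replicates differed by far less than the groups did. Both passed the minimum of 10 CPM only through 0D Ver.

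Bra021037 had 152 and 191 normalized counts in 35D Ver, against 493 and 726 in 0D Ver, a log2 fold change of -1.80 (SE 0.20, adjusted p = 0.000334, limma). Bra008940 had 449.7 and 314 normalized counts in 35D Ver, against 833 and 959 in 0D Ver, a log2 fold change of -1.25 (SE 0.17, adjusted p = 0.000924, limma). Their calls held under every alternative tried. The remaining 5 members lower in 35D Ver, outside the 2 described next, had smaller changes. Bra021074, a DEG named after its values were seen, had 368 and 315 normalized counts in 35D Ver, against 733 and 647 in 0D Ver (log2 fold change -1.01). The other 4 (Bra036408, Bra012760, Bra025082 and Bra009622) had a median log2 fold change of -0.67 and a smallest one of -0.46, with adjusted p-values between 0.00208 and 0.0316 (limma).

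Among the members called lower, the 2 largest decreases belonged to the 2 members with the highest mean CPM. Bra041148 had 15841 and 22454 normalized counts in 35D Ver, against 46117 and 114894 in 0D Ver, with means of 19148 ± 4676 and 80506 ± 48633 (SD, n = 2 each). Bra040780 had 5542 and 8461 normalized counts in 35D Ver, against 16391 and 37109 in 0D Ver. In both genes all 35D Ver libraries were below both 0D Ver libraries, but 0D Ver replicate 2 was 2.49-fold above replicate 1 in Bra041148 and 2.26-fold above it in Bra040780.

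The log2 fold change was -1.95 for Bra041148 (SE 0.51, adjusted p = 0.0460, limma) and -1.85 for Bra040780 (SE 0.48, adjusted p = 0.0459, limma), just past the threshold. Both calls were lost with scaling to total counts (adjusted p = 0.0674 and 0.0690) and without the filter on low values (0.0818 and 0.0812). They were also lost without 35D Ver replicate 1 (0.466 and 0.455) and without 35D Ver replicate 2 (0.391 and 0.358), each time for Bra041148 and then Bra040780, in limma fits. In the same order, their log2 fold changes were -1.29 and -1.26 without 0D Ver replicate 2, and -2.62 and -2.45 without 0D Ver replicate 1.

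Bra041155, the next by mean CPM, went the same way but was not called. It had 3052 and 2790.5 normalized counts in 35D Ver, against 5041 and 30531 in 0D Ver, so that 0D Ver replicate 2 was 6.06-fold above replicate 1. Its log2 fold change was -2.09 (SE 1.10, adjusted p = 0.248, limma). Without 0D Ver replicate 2 it was -0.79, and without 0D Ver replicate 1 it was -3.40. No p-value is given for these fits, which take the spread from the 35D Ver pair alone and leave out that of 0D Ver. The direction was the same from either 0D Ver library, and the size rested on which of them was used. Bra041115 had 151 and 192 normalized counts in 35D Ver, against 215 and 726 in 0D Ver. Its replicates 2 and 1 of 0D Ver were 3.38-fold apart, and its log2 fold change was -1.21 (SE 0.71, adjusted p = 0.273, limma). That became -2.10 without 0D Ver replicate 1 and -0.33 without 0D Ver replicate 2.

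The other members among the 6 highest by mean CPM, besides Bra001086, had replicates that lay closer together. Bra013176 had 7364 and 6489.8 normalized counts in 35D Ver, against 5683 and 3984 in 0D Ver, a log2 fold change of 0.54 (SE 0.17, adjusted p = 0.0356, limma), which was not called without 35D Ver replicate 1 (adjusted p = 0.139), 35D Ver replicate 2 (0.0642) or 0D Ver replicate 2 (0.228). Bra020967 had 4384 and 3474 normalized counts in 35D Ver, against 3269.5 and 3143 in 0D Ver. The groups did not overlap, yet the log2 fold change of 0.28 (SE 0.13, adjusted p = 0.116, limma) was not called. Without 35D Ver replicate 2 the log2 fold change was 0.46.

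The 3 members with the highest mean CPM decided how much of each library the 63 genes held together. All members held 0.403% and 0.456% of the counts in the 35D Ver libraries, against 0.533% and 1.07% in the 0D Ver libraries (mean 0.430% ± 0.037 and 0.802% ± 0.380, SD, n = 2 each). Bra041148, Bra040780 and Bra041155 alone held 0.114% and 0.163% in 35D Ver, against 0.323% and 0.868% in 0D Ver. They made up 28.2% and 35.7% of the members' counts in 35D Ver, against 60.6% and 81.1% in 0D Ver.

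The other 60 members turned the order round, with 0.289% and 0.293% of the counts in 35D Ver, against 0.210% and 0.203% in 0D Ver. Part of this was Bra001086, and without it the other 59 held 0.258% and 0.247% in 35D Ver, against 0.210% and 0.202% in 0D Ver. In each of these sums the groups did not overlap. The split was chosen after the values were seen, and the 3 members set aside were all lower in 35D Ver. The 60 include the 12 members that reached the minimum in 35D Ver only and the 7 that reached it in 0D Ver only. The order among them thus partly follows from the split and from the rule. No p-value is given for these sums, because the smallest two-sided p that exact permutation of 2 libraries against 2 allows is 0.333.

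**Figure D4:**
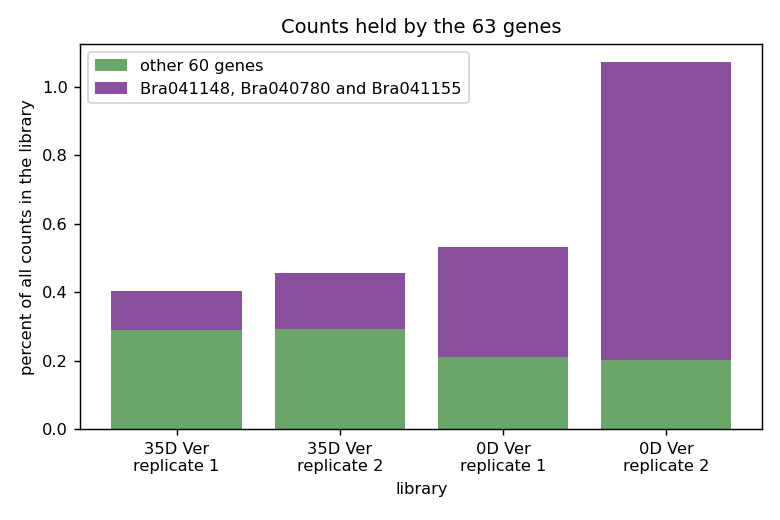
Percent of all counts of each library (y axis) held by the 63 members, split into Bra041148, Bra040780 and Bra041155 (purple) and the other 60 members (green). The purple part is largest in 0D Ver replicate 2 (0.868%), and the green part is higher in the 35D Ver libraries (0.289% and 0.293%) than in the 0D Ver libraries (0.210% and 0.203%).

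Replicates of the members differed more than those of expressed genes with a match, and most plainly in 0D Ver. The median absolute log2 difference between replicates was 0.20 in 35D Ver and 0.21 in 0D Ver for the members, against 0.13 and 0.12 for expressed genes with a match. It was larger still, at 0.25 and 0.27, for the tested genes without a match under the minimum, and 0.16 in both groups over all genes tested. In 35D Ver, replicates were at least 2-fold apart in 0 members and in 48 expressed genes with a match (0.310%). In 0D Ver they were at least 2-fold apart in 7 members (11.1%) and in 67 expressed genes with a match (0.433%). The shares in 35D Ver and 0D Ver were 3.1% and 4.4% of the tested genes without a match under the minimum, and 1.2% and 1.4% of all genes tested. In 5 of the 7 members, namely Bra041148, Bra040780, Bra041155, Bra041115 and Bra029462, replicate 2 was the higher, and in Bra007440 and Bra015238 it was replicate 1. Among the 67 genes with a match, replicate 2 was the higher in 31 and replicate 1 in 36.

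Genes matched to chloroplast or mitochondrial loci moved with the same library. The 19 such genes, which match 18 loci, summed to 77.2 and 58.1 CPM in 35D Ver, against 162 and 1017 CPM in 0D Ver. Bra028087, described below, held most of this sum in each library, and 9 of the 19 genes lay under 1 CPM. Of the 12 that were tested, 0 were higher and 7 lower in 35D Ver at an adjusted p under 0.05 (limma). Over all genes tested, 20.5% were lower. The median log2 fold change of the 12 was -2.45. In 0D Ver, 9 of the 12 were at least 2-fold higher in replicate 2 than in replicate 1, and 0 were so in the reverse. Among the 4 with a mean of at least 10 CPM, only 1 was called lower and 0 higher. Bra028087, which matches rbcL, the chloroplast gene of the large subunit of Rubisco, had 1139 and 789 normalized counts in 35D Ver, against 2227 and 16463 in 0D Ver. Its 0D Ver replicates were 7.39-fold apart, in the same direction as those of Bra041155.

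Bra040977, matched to psbB, a core protein of photosystem II, had 96.2 and 79.3 normalized counts in 35D Ver, against 219.8 and 1057 in 0D Ver. Bra041122, matched to psaA, a core protein of photosystem I, had 63.2 and 69.3 normalized counts in 35D Ver, against 366 and 963 in 0D Ver. The member Bra041115 bears the identifier next to that of Bra041116, another rbcL match. Bra041116 had 152 and 112 normalized counts in 35D Ver, against 255 and 2017 in 0D Ver. Only Bra041122 was called lower, while Bra028087, Bra040977 and Bra041116 were not called. Whether any member shares sequence with an organelle genome, and what part the state of 0D Ver replicate 2 has in the decreases of Bra041148, Bra040780, Bra041155 and Bra041115, was not tested.

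**Figure D5:**
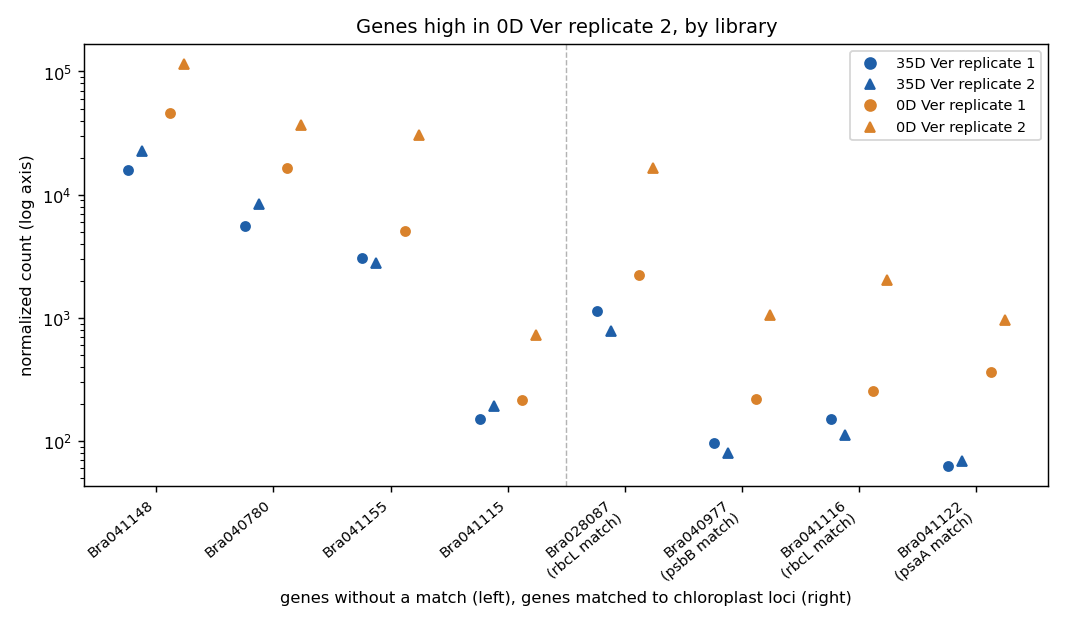
Normalized counts (y axis, log axis) in each library for 4 of the 5 members in which 0D Ver replicate 2 was at least 2-fold above replicate 1 (left, Bra029462 not shown) and the 4 genes matched to chloroplast loci with a mean of at least 10 CPM (right), with 35D Ver in blue, 0D Ver in orange, replicate 1 as circles and replicate 2 as triangles. In all 8 genes 0D Ver replicate 2 is the highest library, for example 30531 against 5041 in replicate 1 for Bra041155.

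The 25 members that were not called had log2 fold changes between -2.09 and 0.37 with a median of -0.00, and 23 of them lay within 0.5 of no change. The 2 beyond it were Bra041155 and Bra041115. Standard errors of the 25 reached 1.10, and in 12 of the 25 the groups did not overlap. Over all genes tested, called or not, the 35D Ver pair lay wholly above in 36.0% and wholly below in 37.1%. Groups apart were thus common, and this count is no result about the members. Bra029462 had 314 and 362 normalized counts in 35D Ver, against 196 and 475 in 0D Ver, so that both 35D Ver libraries lay between the 0D Ver libraries.

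A few members could not be read as independent genes. Bra014641 and Bra026989 had identical deposited counts in all libraries, 1276 and 1154 in 35D Ver and 1168 and 884 in 0D Ver, with a log2 fold change of -0.00 (adjusted p = 0.979, limma). These counts were also within 2% of those of Bra018028, which has a match. Identical counts in all 4 libraries were found in 2 members (3.17%) and in 51 expressed genes with a match (0.330%). Bra000597 and Bra005173 were within 2% of each other in every library, with 1538 and 1560 counts in 35D Ver and 1170 and 798 in 0D Ver for Bra000597, and a log2 fold change of 0.42 for both. Bra038053, 1 of the members higher in 35D Ver (log2 fold change 0.45), was within 2% of Bra032487 in every library, and Bra010050 (-0.02, not called) within 2% of Bra014068, both of which have a match. How reads that fit more than 1 gene were counted is not given in the sources used here, so the values of such pairs are uncertain. Counting near-identical members once left 26 higher and 11 lower.

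Bra012759 and Bra012760 were the only members with consecutive identifiers, and only Bra012760 was called. Bra012760 had 358 and 384 normalized counts in 35D Ver, against 579 and 727 in 0D Ver (log2 fold change -0.81, adjusted p = 0.00208, limma), while Bra012759 had a log2 fold change of 0.26 (adjusted p = 0.259).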

How the data were processed

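Shoot RNA-Seq of line “4004” was analysed, 2 libraries of 35D Ver and 2 of 0D Ver, grouped by the sample labels. Per the methods of the study, trimming with SolexaQA came first, the authors then aligned reads to BRAD B. rapa coding sequences (Bowtie2), and they deposited 1 whole-number count per gene and library, not normalized. Bowtie2 and edgeR are named in the submitters' processing notes. The deposited counts carry commas, which were removed, and their lowest value is 1.

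Size factors came from a trimmed mean of log ratios (TMM, trims of 0.3 and 0.05). The 29691 genes with at least 10 scaled counts in 2 libraries and 15 in total were kept. The test was limma 3.58.1 (trend, robust) in R 4.3.3, with condition as the only term, on log2(normalized count + 1), a scale that understates changes of low genes. Benjamini-Hochberg adjustment ran over all genes tested. The steps were tested on simulated data. CPM came from the unscaled totals, and no gene length was at hand, so levels describe single genes and libraries. The chi-square per degree of freedom was 10.2 between 35D Ver replicates, 9.30 between 0D Ver replicates and 71.3 to 80.4 between groups, so no library was a second copy of another. Count precision is limited by depth only for low genes; no member had fewer than 36 counts in a library.

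The members and the lists were chosen with earlier results of these data known. Named members are the 6 highest by mean CPM, the 6 largest increases and 6 largest decreases among called members with groups apart, the 2 with the largest replicate difference, and the 2 genes on either side of the minimum. Other members named were chosen after their values were seen. Alternatives were other scalings (median of ratios, total counts), other filters, a pseudocount of 0.1, 1 subtracted from every count, voom weights, a mean CPM of at least 5 or 20, an adjusted p under 0.01, a replicate block and leaving out each library. The gene table at hand pairs 0 of the 63 members, so names, positions and sequences were not used here.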

Additional observations from a re-analysis of the deposited data

How the results depend on the processing

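Among the 17 named members, 200 of 221 log2 fold changes under the alternatives kept their direction and their side of the threshold. Of the rest, 17 lost the call (in Bra041148, Bra040780, Bra007440, Bra015238 and Bra013176) and 0 reversed. The other 4 gained it, each in a fit with 1 library left out. With a minimum of 5 CPM, 41 genes were higher and 28 lower, with a median log2 fold change of 0.0509 (0.0106 with a match). With 20 CPM, 14 were higher and 6 lower, with a median of 0.0451 for genes with a match. At an adjusted p under 0.01, 17 were higher and 7 lower, against 14.2% and 12.2% of genes with a match. Leaving out each library in turn gave 19 to 23 members higher, 7 to 13 lower (7 without 35D Ver replicate 2), and 5 to 11 DEGs (5 without either 35D Ver library), with medians of 0.24 to 0.30 for members and 0.0227 to 0.0536 for genes with a match. Such fits let the lone library vary like the other group. In each of them the shares of genes with a match called higher and lower also lay under those of the main fit. The median of genes with a match was 0.0367 with median-of-ratios scaling, 0.0199 with total counts and 0.0494 without a filter.

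The members' mean share of counts was 0.338% in 35D Ver and 0.419% in 0D Ver without Bra041148. In that sum the groups overlapped, with 0.329% and 0.348% in the 35D Ver libraries and 0.313% and 0.525% in the 0D Ver libraries. The mean share was 0.291% and 0.207% without the 3 highest members, an alternative chosen after seeing the data. It was 0.552% in 35D Ver with no minimum. Single libraries gave 0.403% to 0.456% in 35D Ver and 0.533% to 1.07% in 0D Ver. With the replicate number as a block, 24 members were higher, 10 lower and 10 DEGs, while 18.9% of genes with a match were higher and 16.6% lower. The numbers do not pair the libraries, since deviations of same-numbered libraries had a correlation of -0.17 across genes. With crossed numbers, chosen after seeing the data, 30 members were higher and 11 lower, and 8 were DEGs. Genes with a match moved too, to 28.6% higher and 24.6% lower. The calls of Bra041148 and Bra040780 were among those lost with crossed numbers (both held with the block as numbered). The causes of these differences were not tested.

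With 2 libraries a group, an outlying library cannot be told from the other. The library with the highest values of Bra041148, Bra040780 and Bra041155, 0D Ver replicate 2, was also the shallowest.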
